A study of Mus musculus with 6 samples.

Results

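The E proteins and their Id inhibitors were followed in 6 RNA sequencing libraries of mouse spleen T cell fractions, as 6 genes chosen by name: the inhibitor genes Id1, Id2 and Id3 and the E protein genes Tcf3 (encoding E2A), Tcf4 (E2-2) and Tcf12 (HEB). All 6 were found by symbol among the 55416 Ensembl genes counted. The cells were splenic CD3+ T cells of wild-type C57BL/6 mice that had received a graft, with 3 libraries from isograft recipients (donor genetically identical) and 3 libraries from allograft recipients (donor genetically different), and the cells of both groups were kept in serum-containing medium. The grafted organ, donor strain, time after grafting, length of culture and age of the mice are not given in the labels. Whether each library stands for its own mouse is not given either, and the p-values therefore measure library-to-library spread, part of which may be technical.

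E proteins are basic helix-loop-helix transcription factors. They pair through the helix-loop-helix, and their basic regions then grip the DNA motif CANNTG, called the E box. Id proteins have the helix-loop-helix but no basic region, so an E protein caught by an Id protein cannot bind DNA. In the thymus E proteins set the checkpoints at which the antigen receptor is tested, and receptor signalling lifts them by inducing Id3. In mature T cells Id2 is known for effector cells and Id3 for naive and memory precursor cells. E proteins are also central to B cells, and Tcf4 to plasmacytoid dendritic cells.

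The E box is short and common. The upstream windows of 3 members show how it sits there: that of Tcf3, whose transcripts fell in these data, that of Tcf12, the most abundant E protein transcript by counts, and that of Id2, the most abundant Id transcript. Each is the stretch of 250 bases before a RefSeq transcription start (GRCm38.p6), read 5′ to 3′ on the gene's strand, with CANNTG in capitals.
Tcf3 (chr10:80433636-80433885, minus strand): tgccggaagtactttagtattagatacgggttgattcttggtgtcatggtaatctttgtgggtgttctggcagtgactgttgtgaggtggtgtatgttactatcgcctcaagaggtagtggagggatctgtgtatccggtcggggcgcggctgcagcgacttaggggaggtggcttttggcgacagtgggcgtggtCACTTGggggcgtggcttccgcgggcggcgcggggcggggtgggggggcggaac
Tcf12, the first of 3 starts (chr9:72111820-72112069, minus strand): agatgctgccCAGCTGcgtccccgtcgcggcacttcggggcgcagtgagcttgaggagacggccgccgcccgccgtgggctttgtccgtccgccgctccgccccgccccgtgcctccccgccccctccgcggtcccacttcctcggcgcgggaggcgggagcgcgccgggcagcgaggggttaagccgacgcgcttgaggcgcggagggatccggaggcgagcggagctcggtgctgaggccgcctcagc
Id2 (chr12:25096093-25096342, minus strand): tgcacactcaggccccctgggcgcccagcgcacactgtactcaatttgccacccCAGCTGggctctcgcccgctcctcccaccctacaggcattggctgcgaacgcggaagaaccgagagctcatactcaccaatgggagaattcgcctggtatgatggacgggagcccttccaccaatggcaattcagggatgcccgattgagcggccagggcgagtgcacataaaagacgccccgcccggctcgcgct
Each of these windows held 1 E box, beginning 54 bases before the start in Tcf3, 240 in Tcf12 and 196 in Id2. The matches in Tcf12 and Id2 were both CAGCTG, which reads the same on either strand. Among 32536 distinct upstream windows of this length, 66.2% held CANNTG and 13.1% held CAGCTG. The window of Id3 held no CANNTG, and those at the other Tcf12 starts held 1 and 0. All motifs were searched on both strands, and CAGCTG and CAGGTG (17.3% of all windows) are forms of the E box. GGCGCC, present in 9.7% of windows, was found once in Id2, and CCAAT (33.8%) 3 times in Id2 and 2 times at the third Tcf12 start. GCGTGGGCG (0.5%) and TATAAA (12.3%) were found in none of the windows searched, which were those of Id2, Id3, Tcf3 and Tcf12. These are matches of letters, and no binding was measured here.

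Library totals ran from 30066137 to 37821738 counts. Levels are CPM (counts scaled to library size) after TMM scaling, given as mean ± SD over 3 libraries, and differences are log2 fold changes of allograft against isograft from edgeR's quasi-likelihood test, with SE and Benjamini-Hochberg adjusted p over the 14926 genes tested. A gene is said to have risen or fallen where the adjusted p was under 0.05. By that test 57.8% of all genes differed between the groups, 28.7% higher and 29.1% lower in allograft libraries. When libraries were scaled by total counts alone, the log2 median over all genes went from -0.01 to -0.24, and 2973 genes rose and 6093 fell in place of 4283 and 4349. The cell label was checked against marker genes. The 10 T cell markers summed to 1018 to 1067 CPM in isograft and 723 to 814 CPM in allograft libraries, and the 10 B cell markers to 1369 to 1476 and 1307 to 1417 CPM. The B cell sum was thus above the T cell sum in both groups, without correction for gene length, with means of 1436 against 1040 CPM in isograft and 1364 against 771 CPM in allograft libraries, and a level below refers to the fraction as a whole.

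Of the 6 members, Tcf3 fell, Id1 rose at trace level, and Id2, Id3, Tcf4 and Tcf12 did not pass the test. That is 2 of 6 called, against 57.8% of all genes. Groups did not overlap for 3 of 6 (Id1, Tcf3 and Tcf4), against 63.3% of all genes. Id1 alone was called with at least a 2-fold difference (1 of 6), against 20.1% of all genes. All 6 passed the filter on low counts, but Id1 passed only through its allograft libraries, since its 3 isograft libraries lay under the filter's level of 0.326 CPM, so its call adds nothing to a count of members called. None of these shares of members was above that of all genes.

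**Figure D1:**
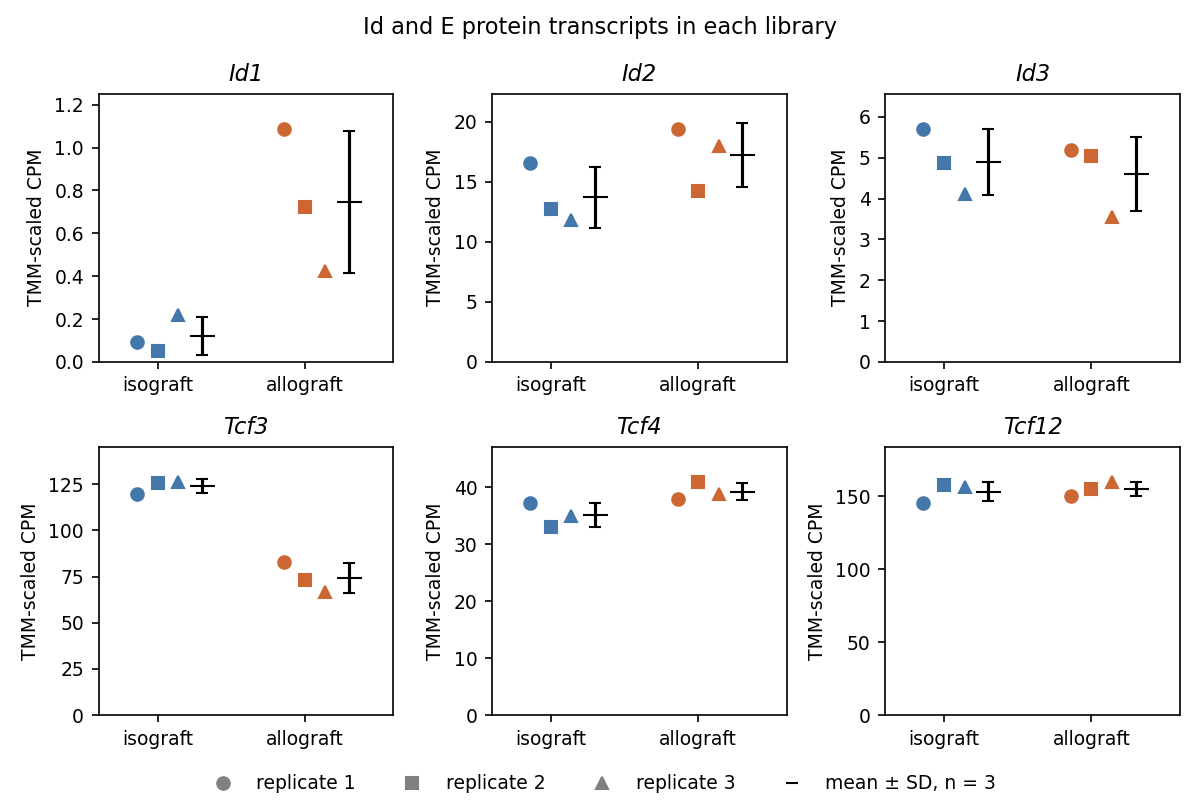
TMM-scaled CPM of the 6 genes in each library, with the scale of each panel starting at 0. Symbols give the replicate and black bars the mean ± SD of 3 libraries. All 3 allograft points of Tcf3 lie below all isograft points, while those of Tcf12 and Id3 overlap with them.

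Among the E protein genes, Tcf3 (ENSMUSG00000020167, chromosome 10, 80245348 to 80269481, GRCm39) encodes E12 and E47, the splice forms of E2A. It stood at 119.5, 125.5 and 126.3 CPM in isograft replicates 1, 2 and 3 and at 83.1, 72.9 and 66.7 CPM in allograft replicates 1, 2 and 3. Every allograft library was below every isograft library, as were those of 32.1% of all genes. Its mean was 123.8 ± 3.72 in isograft and 74.3 ± 8.27 CPM in allograft libraries (SD, n = 3), and the log2 fold change was -0.74 ± 0.08 (SE, edgeR adjusted p = 1.8e-07). This is 0.600 of the isograft level, with a 95% interval of 0.534 to 0.675. Counts behind these values ran from 1877 to 5090 per library. The fall held under all 15 alternatives of scaling, test, filter and libraries, between -0.96 and -0.67. In absolute size it exceeded the changes of 66.2% of all genes. It can reflect fewer cells with the transcript or less transcript per cell, which bulk libraries cannot tell apart. The summed T cell markers of the allograft libraries were at 0.741 of the isograft level and the B cell markers at 0.95. Members of both lists went both ways, 3 higher and 6 lower of 10 T cell markers (Cd5 at 1.38 and Cd4 at -1.57 on the log2 scale) and 3 higher and 5 lower of 10 B cell markers (Cr2 at 0.87 and Fcrla at -1.35). The part of either in the fall of Tcf3 was not tested.

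Tcf12 (ENSMUSG00000032228, chromosome 9, 71749970 to 72019153, GRCm39) encodes HEB, a partner of E2A in thymocytes. It stood at 145.7, 158.0 and 156.3 CPM in isograft and at 150.6, 154.8 and 160.0 CPM in allograft replicates 1, 2 and 3. The groups overlapped over most of their range. Means were 153.4 ± 6.71 and 155.1 ± 4.75 CPM (SD, n = 3), and the log2 fold change was 0.02 ± 0.07 (SE, edgeR adjusted p = 0.86). The 95% interval allowed 0.915 to 1.12 times the isograft level, so a change as large as that of Tcf3 lay outside it. With total counts the value became -0.20 (adjusted p = 0.014), beside a median of -0.24 for all genes in that fit.

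Tcf4 (ENSMUSG00000053477, chromosome 18, 69476427 to 69822150, GRCm39) encodes E2-2, the E protein of plasmacytoid dendritic cells, which is also expressed by B cells. It was measured at 37.3, 33.1 and 35.0 CPM in isograft and at 38, 41.0 and 38.9 CPM in allograft replicates 1, 2 and 3. The allograft libraries were the higher ones, without overlap but by a narrow gap. Means of 35.1 ± 2.08 and 39.3 ± 1.56 CPM (SD, n = 3) gave a log2 fold change of 0.16 ± 0.08 (SE), which did not pass (edgeR adjusted p = 0.11, 95% interval -0.01 to 0.34). The value was -0.06 with total counts. Siglech, a defining marker of plasmacytoid dendritic cells, was near 0 in both groups, at 0.187 to 0.393 CPM in isograft and 0.069 to 0.32 in allograft libraries. The 10 markers fixed for that cell type summed to 172.5 to 181.9 CPM in isograft and 174.2 to 190.9 CPM in allograft libraries. Of these, 7 were tested, with 3 higher and 2 lower by the test. Most of that sum came from Bst2, Spib and Pacsin1, which other lymphocytes also express.

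The mix of E protein transcripts held a smaller share of Tcf3 in allograft libraries. Of the CPM of the 3 E protein genes together, Tcf3 made 39.6% ± 0.123 in isograft and 27.6% ± 2.77 in allograft libraries (SD, n = 3), Tcf12 49.1% ± 0.876 and 57.8% ± 2.41, and Tcf4 11.3% ± 0.959 and 14.6% ± 0.641. The ratio of Tcf12 to Tcf3 CPM, which no scaling of the libraries can change, was 1.22, 1.26 and 1.24 in isograft and 1.81, 2.12 and 2.40 in allograft replicates 1, 2 and 3. The ratio was near-constant in the isograft group and higher, with more spread, in every allograft library. These shares count reads and are not corrected for length.

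**Figure D2:**
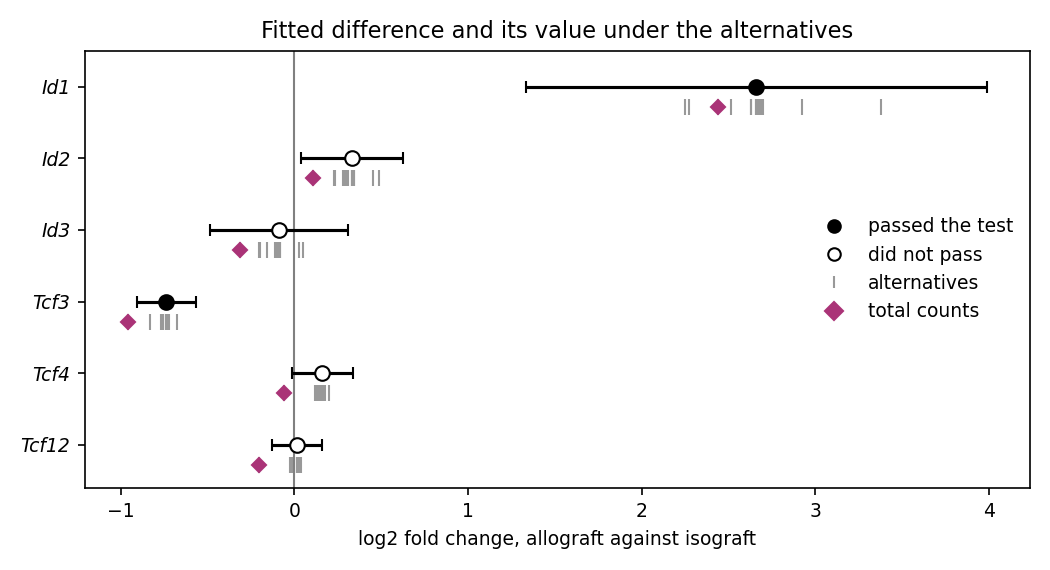
Log2 fold change of each gene (circles, with 95% intervals; filled where the test was passed) and its values under the alternatives (grey ticks below, with total counts as diamonds). Tcf3 lies left of 0 under every setting, and the diamonds of Tcf4 and Tcf12 fall on the other side of 0 from their circles.

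Of the Id genes, Id2 (ENSMUSG00000020644, chromosome 12, 25143798 to 25147139, GRCm39) was the most abundant. It stood at 16.6, 12.8 and 11.8 CPM in isograft and at 19.4, 14.3 and 18.0 CPM in allograft replicates 1, 2 and 3. Isograft replicate 1 lay above allograft replicate 2, so the groups overlapped. The means of 13.7 ± 2.54 and 17.2 ± 2.67 CPM (SD, n = 3) differed by a log2 fold change of 0.33 ± 0.14 (SE), which narrowly missed the threshold (edgeR adjusted p = 0.051, 95% interval 0.04 to 0.63). It passed under 7 of 15 alternatives, at adjusted p from 0.0062 to 0.046, and was smallest with total counts (0.11, adjusted p = 0.54). Without isograft replicate 1 it was 0.49 (adjusted p = 0.0062). Id2 is required in NK and innate lymphoid cells. Their 10 markers summed to 83.9 to 89.6 CPM in isograft and 89.4 to 92.7 CPM in allograft libraries. By the test 1 of 10 was higher, Eomes (10.7 to 14.5 against 31.5 to 40.6 CPM). Another 1 was lower, Il18r1 (35.15 to 36.9 against 16.2 to 22.0 CPM), so the sum hides opposite changes. Ncr1 and Klrb1c were low in both groups, at up to 5.31 and 1.27 CPM, and did not pass. Markers of conventional dendritic cells, which also need Id2, summed to 58.8 to 63.5 CPM in isograft and 101.6 to 116.7 CPM in allograft libraries. Of 7 tested, 2 were higher and 0 lower. Zbtb46 carried most of that difference, at 13.1 to 14.2 CPM in isograft and 55.2 to 61.4 CPM in allograft libraries, Batf3 was the other to rise, and Xcr1, Clec9a, Flt3, Itgax and Sirpa did not pass. The part of either cell type in the level of Id2 was not tested.

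Id3 (ENSMUSG00000007872, chromosome 4, 135870808 to 135873066, GRCm39) was measured at 5.71, 4.86 and 4.12 CPM in isograft and at 5.19, 5.03 and 3.56 CPM in allograft replicates 1, 2 and 3. The groups overlapped, and within each of them replicate 3 was the lowest. Means were 4.90 ± 0.80 and 4.59 ± 0.903 CPM (SD, n = 3), and the log2 fold change was -0.09 ± 0.19 (SE, edgeR adjusted p = 0.71). The 95% interval ran from 0.713 to 1.24 times the isograft level, so a 2-fold change in either direction lay outside it. The counts behind these values were 100 to 197 per library.

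Id1 (ENSMUSG00000042745, chromosome 2, 152578171 to 152579330, GRCm39), an Id gene known from stem cells and blood vessels, was near the limit of detection. It had 3, 2 and 7 counts in isograft and 34, 21 and 12 counts in allograft replicates 1, 2 and 3, or 0.091, 0.049 and 0.218 against 1.09, 0.724 and 0.427 CPM. All allograft libraries were above all isograft libraries, and those of the allograft group differed among themselves by more than 2-fold. Summed over libraries, 12 counts stood against 67, a ratio of 6.68 after scaling, with an exact binomial 95% interval of 3.58 to 13.6 that covers counting error only. The fitted log2 fold change was 2.66 ± 0.63 (SE, edgeR adjusted p = 0.0013), between 2.25 and 3.38 over the 14 alternatives in which the gene was tested. Without isograft replicate 3 the value was the largest of these. The 8 endothelial and stromal markers summed to 262.8 to 268.1 CPM in isograft and 128.2 to 142.7 CPM in allograft libraries, with 0 of 2 tested higher and 1 lower. Nearly all of that sum was Pecam1, which fell from 238.2 to 247.4 down to 101.8 to 118.8 CPM, and Kdr, at 19.85 to 25.7 CPM in isograft and 23.5 to 25.8 CPM in allograft libraries. The other 6 were low, like Id1 itself in the isograft group, among them Cdh5 at 0.197 to 0.437 CPM in isograft and 0.069 to 0.128 CPM in allograft libraries. Their part in the level of Id1 was not tested. Id4, the remaining member of the family, had 2 counts in all, 1 each in 2 libraries and 0 in 4, where a count of 0 allows up to 0.0907 to 0.107 CPM (3 counts, counting error only).

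Per length of exon the order of the 6 transcripts was the same in both groups when all annotated exons of a gene were merged. In isograft libraries Tcf3 stood at 30.6 ± 0.920 CPM per kilobase, Tcf12 at 9.88 ± 0.432, Id2 at 5.63 ± 1.04, Id3 at 2.73 ± 0.447, Tcf4 at 1.28 ± 0.0760 and Id1 at 0.103 ± 0.0759 (SD, n = 3). In allograft libraries the values in that order were 18.4 ± 2.05, 9.99 ± 0.306, 7.08 ± 1.10, 2.56 ± 0.504, 1.43 ± 0.0569 and 0.644 ± 0.286 CPM per kilobase. The ranges of neighbours in that order did not overlap in either group. The order depends on the length, because Tcf4 and Tcf12 have long merged exons (27382 and 15529 bases) from many transcripts. With the median length of coding transcripts in GENCODE M21, Tcf12 came first, at 67.9 ± 2.97 CPM per kilobase in isograft libraries, ahead of Tcf3 at 43.7 ± 1.31 and Tcf4 at 19.1 ± 1.13.

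The balance of inhibitor and E protein transcripts was described by the ratio of their sums, in CPM per kilobase of merged exon. The summed Id level was 8.46 ± 1.44 in isograft and 10.3 ± 1.34 in allograft libraries (SD, n = 3), and these overlapped, while the summed E protein level was 41.8 ± 1.28 and 29.8 ± 1.72 and did not. The ratio was 0.250, 0.188 and 0.172 in isograft and 0.373, 0.315 and 0.345 in allograft replicates 1, 2 and 3. It was higher in each allograft library than in any isograft library, with means of 0.203 and 0.344. Without Id1 and Tcf4 the means were 0.207 and 0.339. Per kilobase of merged exon, Tcf3 made 73.3% of the summed E protein level in isograft and 61.5% in allograft libraries. The ratio therefore restates the fall of Tcf3 in part. With median transcript lengths allograft replicate 2 (0.136) fell below isograft replicate 1 (0.139), so the separation depends on the length used. Within the Id genes, Id2 stood at 2.13, 1.93 and 2.10 times Id3 in isograft and at 2.75, 2.08 and 3.72 times Id3 in allograft replicates 1, 2 and 3, which overlapped. Transcripts are not proteins, and no protein was measured.

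**Figure D3:**
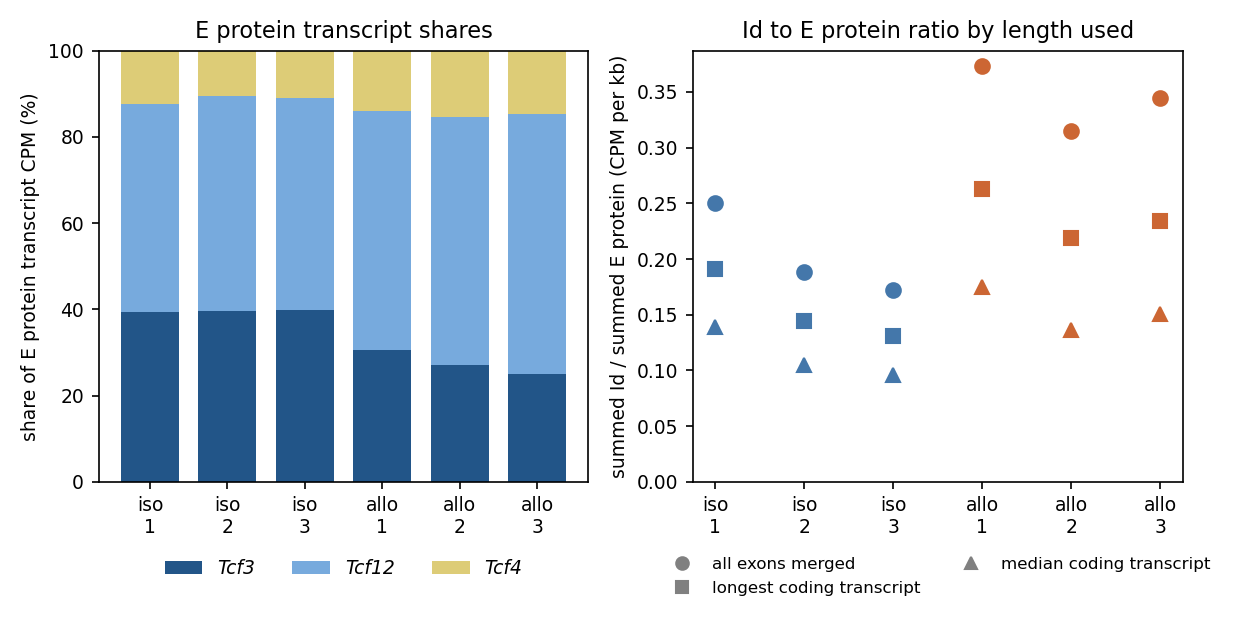
Left, shares of Tcf3, Tcf12 and Tcf4 in the CPM of the E protein genes in each library; right, summed Id over summed E protein level with 3 definitions of gene length. The Tcf3 share is smaller in every allograft library, and the ratio separates the groups with merged exons (circles) and longest transcripts (squares) but not with median lengths (triangles).

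The genes most like each member were sought by the root-mean-square difference of mean-centred log2 CPM over the 6 libraries, among 8816 genes of at least 5 CPM. The smallest differences from Tcf3 were those of Scp2 (0.031), Arl2bp (0.034) and Mast3 (0.035), but 647 genes lay within 0.15 of it. For Tcf12 they were Chm (0.015), Rad50 (0.018) and Nhlrc3 (0.024), and for Tcf4 Pigm (0.029), Rpl18 (0.030) and Ppp6c (0.035). Id2 was followed by Bspry (0.080), Nup35 (0.084) and H3f3b (0.085), and Id3 by Pigl (0.064) and Csf3r (0.066). No gene lay within 0.15 of Id1, for which Unc13a (0.319), Rrs1 (0.391) and Bysl (0.399) came closest. Of the 15 pairs of members, Tcf4 and Tcf12 were the closest (0.117), and Tcf3 was no nearer than 0.374 to any other. With 2 groups of 3 libraries these values mostly reflect the difference between the groups.

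Genes within 100 kb of a member were read beside it and against the 28.7% of all genes that rose and the 29.1% that fell. Around Id1, 3 genes were tested and all 3 rose, among them H13 (0.70 ± 0.07) and Bcl2l1 (3.42 ± 0.10, log2 fold change ± SE). The only tested neighbour of Id2, Kidins220, fell by 0.97 on the log2 scale. Around Tcf3, 4 of 7 tested genes rose and 0 fell, namely Mbd3 (0.49 ± 0.11), Uqcr11 (0.50 ± 0.13) and, at under 5 CPM, Reep6 (2.78 ± 0.38) and Pcsk4 (1.81 ± 0.28). Around Tcf12, 0 of 4 tested genes rose and 1 fell (Gm38057, -1.29 ± 0.50), and no neighbour of Tcf4 was tested. Both tested neighbours of Id3, Rpl11 and E2f2, did not pass (0.08 ± 0.07 and -0.11 ± 0.14). The neighbours named here were chosen after their values were seen. No exonic base of the 6 members was shared with another gene on either strand, so antisense reads from annotated exons do not enter their counts.

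Lists of genes around these factors, 9 in all, were read against the shares of all genes that rose (28.7%) and fell (29.1%). The lists were chosen with earlier results of these data known, so their counts are no independent support. Together the lists held 106 tested genes, of which 42 rose and 33 fell, or 36 and 43 with total counts. In the list of inputs from the antigen receptor 9 of 12 rose and 2 fell. The list's median log2 fold change was 1.20, against -0.01 for all genes. The EGR factors, known inducers of Id3, were among them. Egr1 stood at 23.6, 27.2 and 22.9 CPM in isograft and 372.3, 287.9 and 272.1 CPM in allograft replicates 1, 2 and 3, a log2 fold change of 3.66 ± 0.12 (SE). Egr2 rose by 2.78 ± 0.09, Egr3 by 1.84 ± 0.09 and the NF-kB subunit gene Nfkb1 by 1.25 ± 0.07. Id3 itself did not pass in the same libraries, as given above.

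The BMP arm of the BMP and TGF-beta pathway induces Id1, Id2 and Id3 in many cells through SMAD proteins. In the list for both arms 1 of 14 tested members was higher and 5 were lower (median -0.31). The list holds receptors, SMADs and inhibitors of the pathway, so its count gives no direction for the pathway. Tgfbr2, the type II TGF-beta receptor, went from 196.2 ± 23.8 to 106.3 ± 3.56 CPM (SD, n = 3), and Smad4, the SMAD shared by both arms, from 36.0 ± 1.03 to 24.1 ± 0.470 CPM. Smurf1, the gene of a ubiquitin ligase that inhibits the pathway, fell by 0.59 and the receptor gene Acvrl1 by 1.03 on the log2 scale. With total counts 0 rose and 5 fell.

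Among coactivators and corepressors that work with E proteins, 2 of 11 tested genes rose and 7 fell (median -0.31), or 2 and 9 with total counts. Genes of both kinds were among those that fell. Kat2b, the acetyltransferase PCAF, went from 50.1 ± 2.18 to 16.6 ± 1.33 CPM (SD, n = 3). Crebbp, a coactivator acetyltransferase, fell by 0.46 on the log2 scale, while Kat2a (0.55 ± 0.09) and the arginine methyltransferase gene Carm1 (0.82 ± 0.11) rose. In the list of Id and E protein turnover 5 of 12 rose and 0 fell (median 0.15), or 3 and 3 with total counts. Usp1, a deubiquitinase known to stabilise Id proteins, stood at 155.0, 154.2 and 162.8 CPM in isograft and 278.2, 293.0 and 291.1 CPM in allograft replicates 1, 2 and 3, a log2 fold change of 0.87 ± 0.07 (SE). Its cofactor gene Wdr48 rose by 0.43 ± 0.08 and Cops5 by 0.58 ± 0.08. Cul1 differed by 0.30 ± 0.07, a call lost with total counts (0.08, adjusted p = 0.39).

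Of the other helix-loop-helix factors and their LIM adaptors, 8 of 18 passed the filter, and 2 rose and 4 fell. Bhlhe40, a repressor induced by T cell activation, went from 65.1 ± 5.61 to 213.9 ± 10.5 CPM (SD, n = 3), and its paralogue Bhlhe41 from 7.25 ± 0.532 to 2.93 ± 0.477. Lyl1, a factor that pairs with E proteins, fell by 1.30 and the adaptor gene Ldb1 by 0.57 on the log2 scale. With total counts 1 rose and 4 fell.

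Genes reported elsewhere as E protein targets moved in both directions. In the T cell target list 8 of 17 rose and 6 fell (median 0.35), or 8 and 7 with total counts. Gfi1, a transcriptional repressor, rose by 2.27 ± 0.08 and Spry1, an inhibitor of growth factor signalling, by 4.46 ± 0.16 (log2 fold change ± SE). Cd4 fell by 1.57 and the factor gene Ets1 by 1.32 on the log2 scale. In the B cell target list 3 of 12 rose and 4 fell (median 0.01), or 2 and 6 with total counts. Cd79b, a chain of the B cell receptor, fell by 0.87 and Foxo1 by 0.81, while Irf8 rose by 1.86 ± 0.12 and Cr2, a complement receptor of mature B cells, by 0.87 ± 0.09.

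States tied to Id2, and states tied to Id3 or to E protein activity, were also counted. Of 12 effector genes known from cells with high Id2, 10 rose and 0 fell (median 1.20), or 9 and 0 with total counts. The 4 with the smallest p were Il2ra (3.68 ± 0.08), Gzmb (2.85 ± 0.09), Batf (1.35 ± 0.08) and Ifng (4.69 ± 0.29, log2 fold change ± SE). Ifng stood at only 0.181, 0.197 and 0.437 CPM in isograft replicates 1, 2 and 3. It passed the filter on low counts only through its allograft libraries, so its call adds nothing to the count of effector genes. Of 12 naive, memory and follicular genes known from cells with high Id3 or E protein activity, 3 rose and 8 fell (median -0.71), or 3 and 9 with total counts. Because Id3 inhibits E proteins, this list mixes different states, and its count describes neither Id3 nor E protein activity alone. Lef1 fell by 2.09 on the log2 scale, while Cxcr5 rose by 1.07 ± 0.07 and Eomes by 1.48 ± 0.12. Several genes of both lists were known from earlier results of these data to differ, so the counts of both lists are no independent support.

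**Figure D4:**
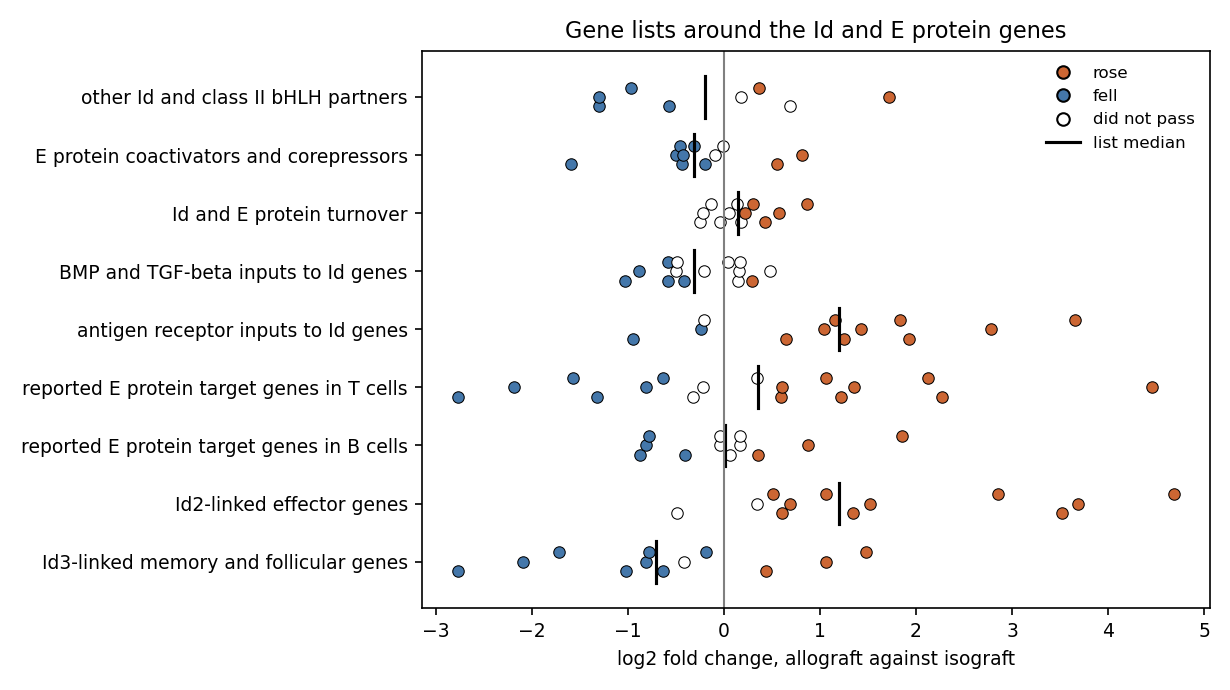
Log2 fold change of each tested member of the 9 lists (1 circle a gene; coloured where the test was passed), with the list median as a black bar. The antigen receptor and effector lists lie mostly right of 0, the naive, memory and follicular list mostly left, and the target lists on both sides.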

How the data were processed

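RNA from 3 isograft and 3 allograft libraries was analysed. The deposited values are raw fragment counts per gene, made by the authors with featureCounts 1.6.0 over the exons of Ensembl release 104 (GRCm39), per the file headers. No strand or multi-mapping option is recorded. In contrast, GRCm38 and mm10 are the builds in the submitters' processing notes. For 4 of the 6 members the intervals in these builds do not overlap, and all 6 held counts, so coordinates are printed as GRCm39. Of 55416 gene IDs, 93.99% received a symbol through their Ensembl ID. Genes were kept by filterByExpr with the group (14926 genes, 99.92% of counts), scaled by TMM and tested with edgeR 4.0.16 (R 4.3.3), quasi-likelihood with robust estimation, tested on simulated data. Intervals use the fit's degrees of freedom. Upstream sequences are from RefSeq (GRCm38.p6) and were searched for 4 of 6 members. Id1 had no entry, and Tcf4 was left out by choice. The members and lists were chosen with earlier results of these data known. In each list the up to 4 called members with the smallest p were named, and for each member the 3 genes most like it; 2 genes that this rule names are not reported here. Within a group, libraries differed by more than sampling noise (chi-square per degree of freedom 10.4 to 22.1). Alternatives were RLE and total-count scaling, DESeq2 1.42.0, limma-voom (3.58.1), non-robust estimation, no filter, at least 5 CPM in 3 libraries, a replicate block, removal of genes for immunoglobulins, hemoglobins and mitochondrially encoded RNA, and each library left out. Gene length alternatives and the leave-one-out of the summed ratio were chosen after seeing the data.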

Additional observations from a re-analysis of the deposited data

How the results depend on the processing

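The fall of Tcf3 and the rise of Id1 passed under every alternative in which they were tested (15 and 14). Id1 passed the low-count filter of the main fit only through its allograft libraries, so its call adds nothing to a count of members called. Id2 passed with DESeq2 (0.34, adjusted p = 0.046), RLE scaling (0.34, 0.045), limma-voom (0.34, 0.043), no low-count filter (0.31, 0.031) and a replicate block (0.33, 0.037), and ran from 0.23 to 0.49 with 1 library left out, passing without isograft replicate 1 (0.0062) or allograft replicate 2 (0.016). Id3 never passed, and ran from -0.315 to 0.052 over the 14 alternatives in which it was tested. With 1 library left out Id3 ran from -0.201 to 0.052, above 0 without isograft replicate 1 or allograft replicate 3. The log2 fold change of Tcf12 turned to -0.008 with the filter of at least 5 CPM, to -0.005 with no filter and to -0.20 with total counts, and ran from -0.023 to 0.036 with 1 library left out. Tcf4 turned to -0.06 with total counts. The log2 difference of the summed Id to E protein ratio, 0.78, became 0.49 without division by length and 0.45 with median transcript lengths, and 0.66 to 0.93 with 1 library left out. The causes of these shifts were not tested. Over refits of 45 other genes, 663 kept the call and 11 lost it, mostly for Lmo4 and Pax5. With the block 55% of all genes were called. Libraries with the same replicate number in the labels correlated at -0.063, 0.003 and -0.034 in their deviations from the group means. No library correlated best with its own number. Such correlations cannot show whether the libraries were paired in the experiment. Depth limits Id1, at 2 to 34 counts per library.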
